A study of Mus musculus with 6 samples.

Results

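The expression profile of laser-captured substantia nigra pars compacta from a wild type mouse sample is 1 of the 6 samples of a mouse series on engrailed homeoproteins and midbrain dopaminergic neurons. All of its values come from that single RNA-seq library. For each gene the transcript with the most reads here stood for the gene, and genes with symbols starting mt- and ribosomal RNA genes were set aside. Of the 34732 genes that remained, 15713 had at least 1 read, 9359 had at least 20 reads and 2361 reached 100 reads per 1000000 kept reads (CPM). Each count below of list or family members with at least 20 reads stands beside that share, 9359 of 34732. Across the 4 captured libraries 18871 genes had a read.

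The wild type sample was taken at 6 weeks of age and the labels name no treatment for it. The 3 other captured samples are En1+/- nigra at 6 weeks, wild type nigra at 8 weeks on the side that had received En2 by infusion for 7 days, and the opposite, contralateral side of such infused animals, also wild type at 8 weeks. The labels give En2 as the infused protein, but the authors' deposited comparison of that pair is named for En1, so the identity of the protein is uncertain for every infused and contralateral value. The remaining 2 samples are tissue punches taken after 6-OHDA, a toxin of dopaminergic neurons, with or without En2, and they were not used. The captured cells were nigral neurons marked by a rapid stain for tyrosine hydroxylase before laser microdissection. Selection by this stain means that Th itself helped to choose the cells. The number of animals per sample, and whether any were pooled, are not given in the sources used. With 1 library per group, nothing below has a replicate check, and each bracketed range is an exact 95% interval that covers counting error only.

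Dopaminergic neurons of the pars compacta project to the striatum and fire as slow pacemakers. They make dopamine from tyrosine through tyrosine hydroxylase and aromatic amino acid decarboxylase, load it into vesicles, and take it back up through the dopamine transporter. Their loss underlies the motor signs of Parkinson disease.

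The starts of the genes for these 4 steps are shown because the steps define the captured cell type. Each line gives the 250 bases upstream of the RefSeq start on GRCm38.p6, 5′ to 3′ on the gene's strand. They are chr13:73536497-73536746 on the plus strand for Slc6a3, chr7:142899996-142900245 on the minus strand for Th, chr19:59260628-59260877 on the plus strand for Slc18a2 and chr11:11890409-11890658 on the minus strand for Ddc. Of 2 RefSeq starts for Ddc, the one nearest the counted transcript was used, and the window of the other is not shown. Capitals mark a GC box or a cyclic AMP response element.
Slc6a3: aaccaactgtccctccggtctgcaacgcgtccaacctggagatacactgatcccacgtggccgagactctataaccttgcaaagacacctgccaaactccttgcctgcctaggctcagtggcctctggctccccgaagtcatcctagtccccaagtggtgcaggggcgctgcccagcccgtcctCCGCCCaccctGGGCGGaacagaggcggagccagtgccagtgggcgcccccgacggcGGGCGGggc
Th: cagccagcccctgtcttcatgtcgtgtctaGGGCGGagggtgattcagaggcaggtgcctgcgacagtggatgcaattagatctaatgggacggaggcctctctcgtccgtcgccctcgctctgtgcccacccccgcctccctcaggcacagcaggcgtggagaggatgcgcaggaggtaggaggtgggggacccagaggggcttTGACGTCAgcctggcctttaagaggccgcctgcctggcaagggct
Slc18a2: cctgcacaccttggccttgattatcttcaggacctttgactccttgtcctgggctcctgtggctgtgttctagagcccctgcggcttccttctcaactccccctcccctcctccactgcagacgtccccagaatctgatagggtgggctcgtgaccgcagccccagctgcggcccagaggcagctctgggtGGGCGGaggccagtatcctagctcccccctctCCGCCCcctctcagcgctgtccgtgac
Ddc: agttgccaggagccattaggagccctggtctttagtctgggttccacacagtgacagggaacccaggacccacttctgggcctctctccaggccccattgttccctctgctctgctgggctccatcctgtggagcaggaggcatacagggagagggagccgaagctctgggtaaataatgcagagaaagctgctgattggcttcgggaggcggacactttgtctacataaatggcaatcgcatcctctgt
Both strands were searched for 4 motifs. The GC box was spelled GGGCGG and the cyclic AMP response element TGACGTCA. The element bound by NR4A receptors such as Nr4a2 was spelled AAAGGTCA. The letters of the TATA motif were TATAAA. The Th window held the cyclic AMP response element 45 bases before its start, a match present in 1.55% of 32851 mouse promoter windows of this length. It also held a GC box 220 bases before the start. GC boxes, present in 32.7% of windows, stood 66, 55 and 9 bases before the Slc6a3 start and 59 and 27 bases before the Slc18a2 start. TATAAA and AAAGGTCA were in none of the 4 windows, against 12.4% and 1.34% of all windows, and the Ddc window held none of the 4 motifs. A match describes these letters alone.

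The transcript counts of the wild type library summed to 16145262, of which mitochondrial ribosomal RNA took 74.4%. The genes kept for the profile held 1513313 reads, so 1 read equals 0.661 CPM. The limit that a count of 0 allows, taken as 3 reads and one-sided, unlike the bracketed ranges, equals 1.98 CPM. The other 3 captured libraries held 1904124 to 3257244 such reads. Protein-coding genes took 95.9% of the kept reads and long intergenic RNAs 1.50%. The 10 most-read genes held 6.14% of the kept reads, the 100 most-read 18.8%, and 1017 genes held 50% of them.

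Reads were led by myelin and neuronal genes together. Mbp, which encodes myelin basic protein, had the most reads, 20070, or 13262 CPM (13079 to 13447). Malat1, an abundant nuclear noncoding RNA, followed with 18321 reads. Snap25, a SNARE protein of synaptic vesicle fusion, had 8362 reads at rank 4, Mobp, a myelin protein, 7441, and Map1b, a microtubule-associated protein, 7428. The next 4 were Cpe, which trims neuropeptide precursors, with 5695 reads, Atp1b1, a sodium pump subunit, with 5686, the secreted matrix protein Sparc with 4974 and the astrocyte gene Ndrg2 with 4874. Slc18a2, the vesicular monoamine transporter, stood at rank 11 with 4557 reads and Slc6a3, the dopamine transporter, at rank 14 with 4308 reads.

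Between those transporters came Atp5b, a subunit of mitochondrial ATP synthase, with 4405 reads, and the calcium sensor Vsnl1 with 4324. Among ranks 15 to 20 were Sparcl1, Slc1a2, Fth1, Map1a and Cst3, with 3398 to 4059 reads. Fth1 is the heavy chain of ferritin, the iron store. Rtn3, Rab3c and Cadm2, at ranks 23 to 25, had 3022 to 3070 reads. Gm20721, at rank 22 with 3255 reads, overlaps Gnas on the opposite strand over 16394 bases, so without a stated strand its reads and those of Gnas cannot be told apart. Mir5105, at rank 27 with 2865 reads, has no length in the annotation used.

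Read counts favour long transcripts, so levels were compared between genes as CPM per kilobase of the counted transcript. On that scale Mbp again came first, at 24976 CPM per kilobase over a counted transcript of 531 bases. The same gene gave 5322 CPM per kilobase over its longest transcript holding at least 90% as many reads, and it stayed above every protein-coding gene by that value too. Fth1 had 2738 CPM per kilobase, Snap25 2611, Cst3, the secreted protease inhibitor cystatin C, 2611, Mobp 1885, Cpe 1778, Malat1 1734 and Ndrg2 1534. Small subunits of the respiratory chain moved up on this scale, with Cox4i1 at 1396 and Ndufb9 at 975 CPM per kilobase. Slc6a3, at 824 CPM per kilobase, ranked 21 and Slc18a2, at 796, ranked 22. Very short annotated genes, among them the predicted microRNA genes Gm23935 and Gm23134, also stood in the first 25, and their values rest on 57 and 87 bases.

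**Figure D1:**
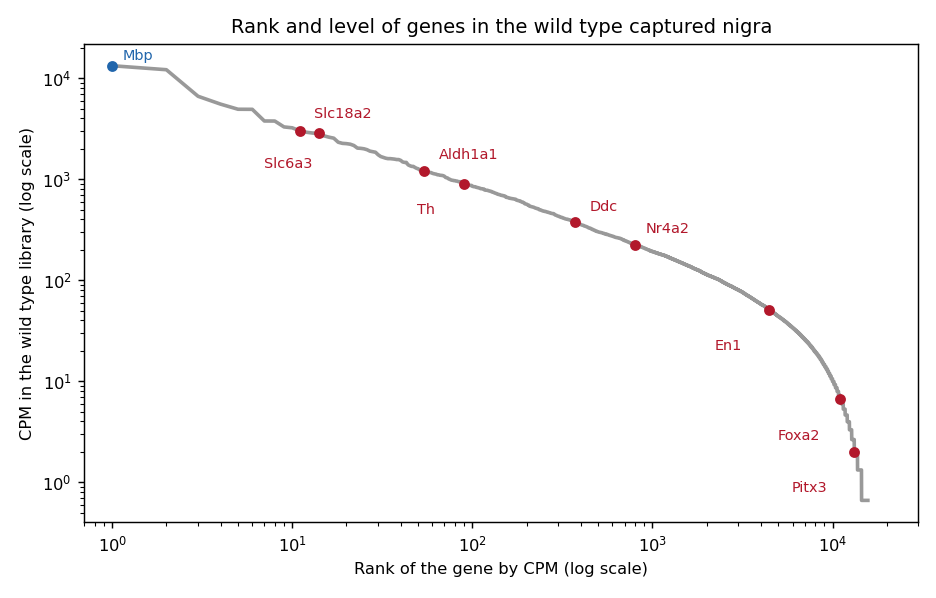
Level of each gene with a read in the wild type library (CPM, log scale) against its rank (log scale), 1 line through 15713 genes. Points mark the myelin gene Mbp in blue and dopaminergic genes in red: Slc18a2 and Slc6a3 lie at ranks 11 and 14, while Foxa2 and Pitx3 had 10 and 3 reads.

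All 3 defining markers of dopaminergic neurons were present. Slc6a3 lies at chr13:73536747-73578672 and reached 2847 CPM (2762 to 2933). Th, the rate-limiting enzyme of dopamine synthesis, at chr7:142892752-142931128, had 1359 reads, 898 CPM (851 to 947), at rank 90. Ddc, the decarboxylase, at chr11:11814101-11898144, had 567 reads, 375 CPM (344 to 407), at rank 371. Per kilobase the order was Slc6a3 at 824, Th at 491 and Ddc at 192 CPM per kilobase. Slc18a2, at chr19:59260896-59296012, lay close to Slc6a3 at 796 CPM per kilobase, and Aldh1a1, which clears retinaldehyde and dopamine aldehyde in ventral nigral neurons, had 591.

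The list of 17 genes of dopamine handling held 0.975% of the kept reads, a sum of 9747 CPM (9591 to 9906), and 16 of its members had at least 20 reads. Qdpr, which regenerates the tetrahydrobiopterin cofactor of Th, had 304 CPM per kilobase, the vesicular proteins Slc10a4 and Sv2c had 144 and 38.9, and Pts and Gch1, which make the cofactor, had 47.4 and 28.3. Among enzymes of breakdown, Maoa had 14.6 CPM per kilobase, Aldh2 8.37 and Maob 5.76. Gchfr, the feedback regulator of Gch1, had 1 read.

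Across the captured libraries the 3 markers stayed within 2-fold of their wild type CPM, apart from Ddc on the infused side. Slc6a3 had 2847 CPM in wild type, against 2691 in En1+/-, 3715 on the infused side and 3416 on the contralateral side. Th had 898 CPM in wild type, against 752 in En1+/-, 908 on the infused side and 808 on the contralateral side. Ddc had 375 CPM in wild type, against 309 in En1+/-, 944 on the infused side and 426 on the contralateral side. In these bulk samples fewer cells of a type and less RNA per cell cannot be told apart.

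Transcription factors of the lineage lay far below the leading transporters and enzymes of dopamine handling, though the lists overlapped in level. The factor list had a median of 6.90 CPM per kilobase, against 38.9 for dopamine handling. Of 16 factors in the list, 11 had at least 20 reads and 5 had 1 to 19 reads. Nr4a2, the nuclear receptor needed for dopaminergic identity, was highest, with 338 reads and 62.6 CPM per kilobase. Satb1, a chromatin organiser of nigral neurons, had 47.0 CPM per kilobase, Ebf3 37.0 and Bnc2 20.8. En1, the homeobox gene that the series alters, had 77 reads and 19.4 CPM per kilobase, and its paralogue En2 had 20 reads and 3.73 CPM per kilobase. Foxa1, a forkhead factor, had 65 reads and its paralogue Foxa2 had 10.

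Defining homeobox genes of this lineage were among the lowest. Pitx3, a homeobox gene of midbrain dopaminergic neurons, had 3 reads, 1.98 CPM (0.409 to 5.79), which is at the level of 3 reads that a count of 0 allows. Its counts were also low elsewhere, at 4 reads in En1+/-, 15 on the infused side and 5 on the contralateral side. Lmx1a and Lmx1b, LIM homeobox genes of midbrain floor plate progenitors, had 9 and 10 reads. Otx2, which marks ventral tegmental neurons in the adult, had 25 reads in wild type, against 708 in En1+/-, 3 on the infused side and 10 on the contralateral side. At these counts levels of Pitx3, Lmx1a and Lmx1b cannot be ordered.

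In the transcription factor families as a whole, the highest members of some lay above Nr4a2 and those of others below it. Of 133 homeobox and LIM genes, 22 had at least 20 reads and 81 had 0 reads, and Pbx3 led with 351 reads and 89.7 CPM per kilobase. Below Satb1 came Zeb2 at 39.0, the oligodendroglial gene Nkx6-2 at 37.8, Pbx2 at 32.5, Meis3 at 31.7 and Pax6 at 29.2 CPM per kilobase. Among 73 basic zipper and related factors, Atf4, the main factor of the integrated stress response, had 146 CPM per kilobase and Atf2 99.0. Thra, the thyroid hormone receptor, led 45 nuclear receptors with 107 CPM per kilobase, ahead of Nr4a2 and of the clock gene Nr1d1 at 50.3. Olig1 led 60 helix-loop-helix genes at 94.1 and Sox8 led 62 Sox and forkhead genes at 31.9, and both mark cells of the oligodendrocyte lineage. Of 365 genes named Zfp, 166 had at least 20 reads, led by Zfp365 at 60.8 CPM per kilobase. The leading Sox and Zfp genes thus lay below the 62.6 CPM per kilobase of Nr4a2.

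All 17 listed receptors of nigral dopaminergic neurons had at least 20 reads, with a summed 4145 CPM (4043 to 4248). Ret, the signalling receptor of GDNF family ligands, was highest, with 1461 reads, 965 CPM (917 to 1016) and 215 CPM per kilobase, at rank 80 among all genes by CPM. Ret had 965 CPM in wild type, against 1086 in En1+/-, 1012 on the infused side and 869 on the contralateral side. Its coreceptor Gfra1, which binds GDNF, had 58.9 CPM per kilobase, and Gfra2, which binds neurturin, had 15.4. Ntrk2, the BDNF receptor that astrocytes also express, had 123 CPM per kilobase. Drd2, the dopamine autoreceptor, had 112 CPM per kilobase, and no other gene of the 33 dopamine, serotonin, adrenergic and muscarinic receptors passed 26.3 CPM per kilobase, the value of Htr2c.

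Nicotinic subunits differed widely in level. Of 16 subunits, 7 had at least 20 reads, 2 had fewer and 7 had 0. Among all 34732 genes, 9359 had at least 20 reads. Chrna6, a subunit largely restricted to catecholaminergic and visual pathways, had 532 reads and 121 CPM per kilobase, and Chrna4 had 802 reads and 116 CPM per kilobase. Chrnb3, which assembles with Chrna6, had 33.4 CPM per kilobase, followed by Chrna5 at 14.8, Chrnb2 at 13.4, Chrna7 at 10.8 and Chrna3 at 10.3. Chrna1, the muscle subunit, had 13 reads.

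Among receptors for fast amino acid transmitters, Gria2, the AMPA subunit that limits calcium entry, had 814 reads and 134 CPM per kilobase. Glrb, the glycine receptor beta subunit, had 93.6 and Gabrb2, a GABA-A subunit, 47.9 CPM per kilobase. All 18 ionotropic glutamate receptor subunits had reads, and after Gria2 came Grin1, the obligate NMDA subunit, at 48.4, Gria4 at 44.7 and Gria3 at 23.7 CPM per kilobase. Metabotropic receptors were led by the GABA-B subunits Gabbr1 at 91.3 and Gabbr2 at 32.9, and Grm5 had 17.1. Among 65 peptide, purine and opioid receptors, Ntsr2, a neurotensin receptor that astrocytes express, had 196 CPM per kilobase, while Ntsr1, the neurotensin receptor of dopaminergic neurons, had 34.8 and Oprk1, the kappa opioid receptor, 26.1.

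Of 24 listed pacemaking and excitability channels found in the table, 22 had at least 20 reads. Kcnd3, a potassium channel of the A-type current, was highest in that list, with 693 reads and 63.9 CPM per kilobase, and Kcnip3 and Kcnip4, auxiliary subunits of such channels, had 36.8 and 24.8. Scn1a and Scn2a, sodium channel alpha subunits, had 39.2 and 32.7 CPM per kilobase. Kcnj6, the inward rectifier coupled to Drd2, had 26.2 and Kcnn3, a small-conductance calcium-activated potassium channel, 24.5. Nalcn, the sodium leak channel, had 269 reads. Cacna1d, the L-type calcium channel subunit linked to nigral pacemaking, had 71 reads and 5.82 CPM per kilobase, and Cacna1c had 21 reads. Of the HCN channels of the hyperpolarisation-activated current, Hcn2 had 20.5, Hcn3 11.1 and Hcn4 5.83 CPM per kilobase.

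In the channel families as a whole, the highest members included channels of other cells. Kcnj10, the glial inward rectifier, had 1549 reads and 189 CPM per kilobase, above every other potassium channel gene. Kcna1 had 92.6 and Kcnc1, a channel of fast-firing neurons, 42.1 CPM per kilobase. The auxiliary sodium channel subunits Scn3b and Scn2b, at 91.0 and 49.7 CPM per kilobase, lay above the alpha subunits. Clcn3, an endosomal chloride exchanger, led the family of chloride, TRP and intracellular channels at 39.8 CPM per kilobase.

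**Figure D2:**
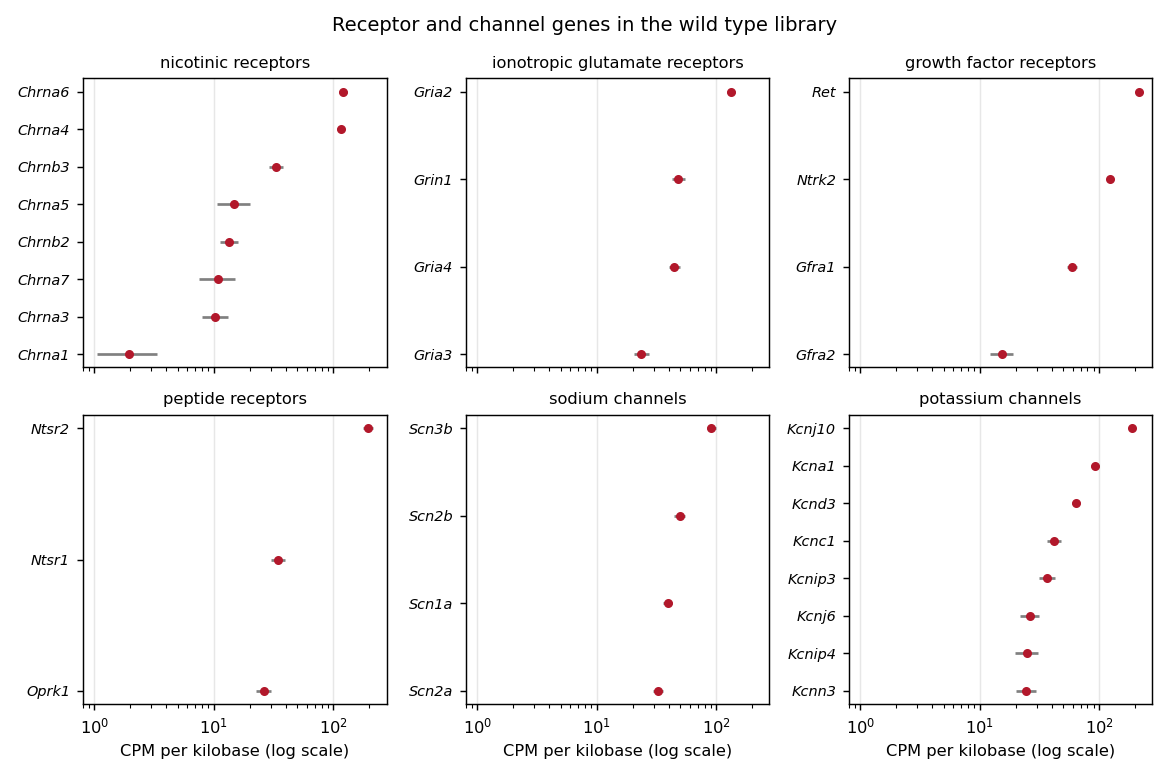
CPM per kilobase (log scale) of receptor and channel genes described in the text, in 6 panels by family, in the wild type library, with exact 95% counting intervals as bars. Chrna6 and Chrna4 stand apart from the other nicotinic subunits, at 121 and 116 CPM per kilobase against 33.4 for Chrnb3, and Ret leads the growth factor receptors at 215.

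All subtype genes of the nigra and most of those of the ventral tegmental area had at least 20 reads, against 9359 of all 34732 genes. Behind Slc6a3, Aldh1a1 and Drd2, the nigral list had Satb1 at 47.0, Anxa1, a marker of a ventral nigral subset, at 46.2, Lmo3 at 29.6 and Ndnf at 28.0 CPM per kilobase. Sox6, a factor of nigral neurons, had 76 reads and 6.10 CPM per kilobase. Of 11 ventral tegmental genes, 8 had at least 20 reads, Neurod6 and Lpl had 5 and 2, and Vip had 0. Cck, the peptide cholecystokinin, had 304 reads and 291 CPM per kilobase, above Calb2 at 38.8, Slc17a6 at 19.0, Grp at 18.0 and Calb1 at 13.3.

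Cck was also the highest of 21 neuropeptide genes, ahead of Sst at 81.6, Tac1 at 27.0, Grp at 18.0 and Cartpt at 15.2 CPM per kilobase. Of these 21 genes, 8 had at least 20 reads, and Avp, Gal, Hcrt, Oxt, Ucn and Vip had 0 reads, which allows up to 1.98 CPM.

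Among 20 genes linked to Parkinson disease, 19 had at least 20 reads, against 9359 of all 34732 genes. Uchl1, a neuronal ubiquitin hydrolase, had 381 CPM per kilobase, Pink1, a mitochondrial kinase, 173, and Synj1 and Dnajc6, both of clathrin uncoating, 146 and 137. Lrrk2 had 30 reads and 2.40 CPM per kilobase, the lowest of the list.

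Markers of other cell types differed widely in the same library. The 15 oligodendrocyte genes all had at least 20 reads and summed to 30783 CPM (30504 to 31064), or 3.08% of the kept reads, of which Mbp gave 43.1%. Mobp had 1885, Mal 571 and the chaperone Cryab 419 CPM per kilobase. The 15 astrocyte genes summed to 11599 CPM, led by Ndrg2 at 1534, Glul, glutamine synthetase, at 409, Aldoc at 390, S100b at 282 and Clu at 262 CPM per kilobase. Gfap, the astrocyte filament, had 84 reads, or 55.5 CPM. It had 35.9 CPM in En1+/-, 475 on the infused side and 81.4 on the contralateral side.

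Microglial, vascular and precursor genes were far lower. The 16 microglial genes summed to 610 CPM (571 to 651), with C1qc at 51.6 and Ctss at 40.5 CPM per kilobase among the highest, and the complement gene C1qa had 8 reads. The 13 endothelial and mural genes summed to 1238 CPM, of which the pericyte gene Rgs5 gave 48.6%, and Slc2a1, the glucose transporter of brain vessels, had 90.6 CPM per kilobase. The 10 genes of oligodendrocyte precursors also summed to 1238 CPM, of which the most-read gene gave 52.2%, and Bmp4 had 0 reads. Of the ependymal and choroid plexus genes, Enpp2, which oligodendrocytes express too, gave 97.9% of the reads, Ttr had 2 reads, and Ccdc153 and Tmem212 had 0. The globin genes Hba-a1 and Hba-a2 had 0 reads and Hbb-bs had 26, and because these are near-identical copies their counts are uncertain.

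Neurons of other transmitter types were represented chiefly by GABAergic genes. Gad1 and Gad2, the enzymes of GABA synthesis, had 647 and 987 reads, or 127 and 114 CPM per kilobase, and Slc32a1, the vesicular GABA transporter, had 212 reads and 50.1. Pvalb, a calcium buffer of fast-firing neurons, had 136 CPM per kilobase. Slc17a6, the vesicular glutamate transporter of subcortical neurons, had 119 reads, and Slc17a7 and Slc17a8 had 5 and 9. The 9 cholinergic, serotonergic and noradrenergic genes measured had 6 reads in all, a sum of 3.96 CPM (1.46 to 8.63), and Dbh, Slc6a2, Slc6a4 and Tph2 were among those with 0. General neuronal genes summed to 28838 CPM (28568 to 29110), with all 24 at 20 reads or more and Snap25, Vsnl1, Stmn3 and Thy1 among the highest, at 2611, 1501, 718 and 557 CPM per kilobase.

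**Figure D3:**
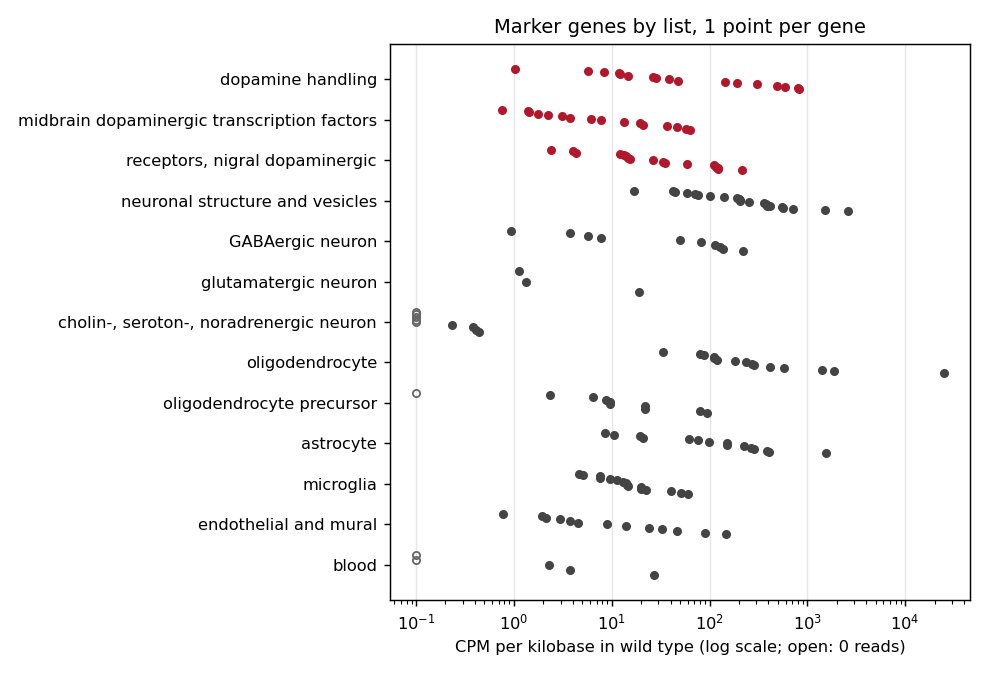
CPM per kilobase (log scale) of each gene of 13 marker lists in the wild type library, 1 point per gene, with open circles for genes with 0 reads. Dopamine handling genes reach 824 CPM per kilobase, and the highest oligodendrocyte point is Mbp over its short counted transcript (24976). Cholinergic, serotonergic and noradrenergic genes stay at or below 0.443.

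Of 15 immediate early genes, which rise within minutes of stimulation, 4 had at least 20 reads, a share close to the 9359 of 34732 among all genes. These were Jun with 63, Egr1 with 46, Arc with 39 and Jund with 26, while Fos had 6, and Atf3, Egr2, Fosb, Ier2 and Npas4 had 0. Of 5 long noncoding RNAs measured, Malat1 had 1734 CPM per kilobase, Snhg11 188, Pantr1 113, Meg3 80.9 and Neat1 4.52. Xist had 0 reads in all 4 captured libraries, and the Y-linked Ddx3y, Eif2s3y, Uty and Kdm5d had 57 to 189 in wild type.

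Some textbook abundant transcripts had few reads. Of 305 genes matched by the symbol pattern of cytosolic ribosomal proteins, 183 had 0 reads and 38 had at least 20. The pattern also takes in pseudogenes and the Rps6k kinases, so these counts do not give the share of ribosomal protein genes without reads. Gapdh had 6 reads, Hspa8 9 and Eef1a1 64, while Actb had 665 and Tubb5 652. These families have near-identical copies in the genome, so their counts are reported as uncertain, and the part of the counting in them was not tested.

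The abundant part of the profile recurred in the other captured libraries. Of the 2361 wild type genes at 100 CPM or more, 93.0% lay within 2-fold of their CPM on the contralateral side, 90.9% in En1+/- and 86.1% on the infused side, and none had 0 reads in any of these. Of the 100 most-read wild type genes, 85 were also among the 100 most-read on the contralateral side, 82 in En1+/- and 79 on the infused side. Spearman's rho over 10710 genes was 0.825 between wild type and the contralateral side. It was 0.783 over 11424 genes for En1+/- and 0.729 over 11118 genes for the infused side. The points of each rho are genes that share their libraries' preparation and counting.

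The wild type library was compared with the contralateral side, which is also wild type and was not itself the infused side. Age (6 against 8 weeks) and the infusion of the other hemisphere differ with the library, so their parts cannot be told apart. A gene was called past 2-fold when it had at least 20 reads in 1 of the 2 libraries, its scaled ratio reached 2-fold, and the exact counting interval of the ratio excluded 1. Of 10710 genes measured, 1432 were past 2-fold higher in wild type, or 13.4%, and 1503 were past 2-fold lower, or 14.0%, together 27.4%. The median log2 ratio over these genes was -0.05. With at least 100 reads required in 1 library, 684 of 4682 genes were past 2-fold, or 14.6%, and 38.5% of these calls were higher in wild type, against 48.8% at the 20-read minimum.

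Most genes of the dopamine handling, receptor, neuronal and Parkinson disease lists were within 2-fold, as were most of all genes measured. Of 16 dopamine handling genes measured, 2 were past 2-fold higher, Aldh2 among them, and none lower, against 13.4% and 14.0% of all genes, and the list median was -0.12. Aldh2 had 49 reads in wild type and 20 on the contralateral side, a ratio of 1.54 (0.79 to 2.40) on the log2 scale. None of the 17 receptors, none of the 24 neuronal genes and none of the 19 Parkinson disease genes measured was past 2-fold in either direction. The medians of these lists were -0.15, 0.10 and 0.04. Among all genes with at least 100 reads in 1 library, the share past 2-fold in either direction was 14.6%.

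**Figure D4:**
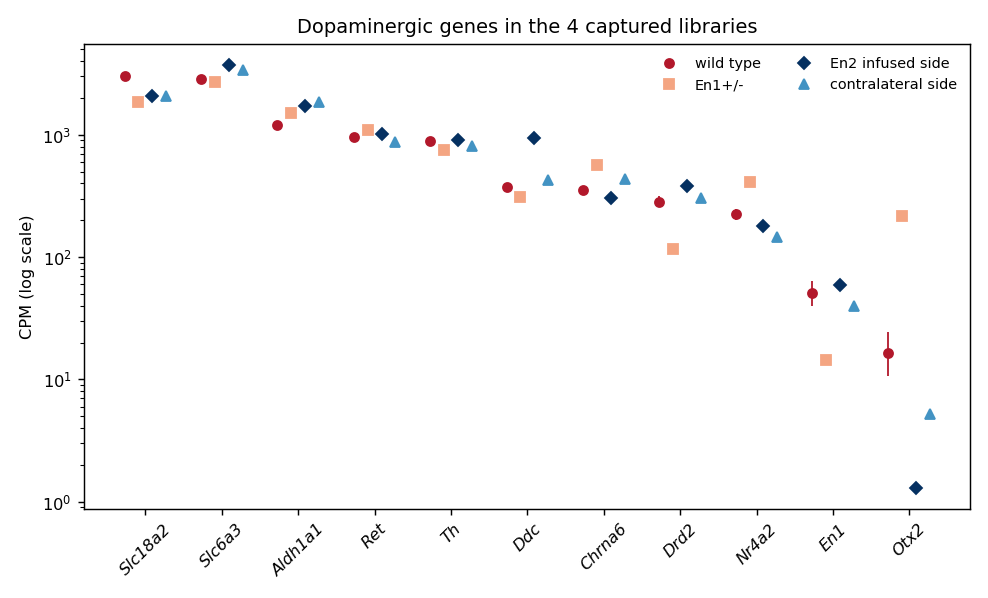
CPM (log scale) of 11 dopaminergic genes in the wild type library (red circles, with exact 95% counting intervals) and in the En1+/-, infused and contralateral libraries, 1 library each. Slc6a3 and Th each lie within 2-fold of their wild type CPM in the other libraries, Ddc is highest on the infused side at 944 CPM, and Otx2 has 16.5 CPM in wild type, against 217 in En1+/-, 1.31 on the infused side and 5.25 on the contralateral side.

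Over all genes measured 13.4% were past 2-fold higher and 14.0% lower, and the small counts of the lists are set beside those shares. Of 13 lineage transcription factors measured, Otx2 was past 2-fold higher and 5, namely Bnc2, Sox6, En2, Lmx1a and Lmx1b, were past 2-fold lower, with a list median of -0.65 against -0.05 for all genes. En2 had 20 reads in wild type and 62 on the contralateral side, a log2 ratio of -1.33 (-2.16 to -0.61), and Lmx1b had 10 and 81 reads, for which it was -2.69 (-3.85 to -1.79). En1 had 77 reads in wild type and 76 on the contralateral side, within 2-fold. Among 23 channels measured, 2 were higher, Hcn2 among them, and 3 were lower, namely Kcnip4, Cacna1c and Kcna4. Of nigral subtype genes, Lmo3 and Sox6 were past 2-fold lower, and of ventral tegmental ones, Grp and Otx2 were past 2-fold higher. Of 9 neuropeptide genes measured, Tac1, Grp, Pnoc and Pomc were past 2-fold higher, with 20 to 45 wild type reads each.

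Of the oligodendrocyte genes 4 of 15 were called, and of the astrocyte genes 1 of 15, against 27.4% of all genes. That share was 14.6% among genes with at least 100 reads in 1 library. Of the oligodendrocyte genes, Mal, Ugt8a and Mog were past 2-fold higher and Opalin, a late myelin gene, past 2-fold lower, and the list median was 0.66 against -0.05 for all genes. The list summed to 30783 CPM in wild type, against 25975 in En1+/-, 21293 on the infused side and 20664 on the contralateral side. The dopamine handling sum was 9747 CPM in wild type and 10388 CPM on the contralateral side. Whether myelin was captured unequally, and its part in any difference between these libraries, was not tested. Of the astrocyte genes, Aldh1l1 was past 2-fold higher, and the list median was 0.08. Of 15 microglial genes measured, 2 were higher, C1qc and Trem2, and 4 lower, C1qa, C1qb, Tyrobp and Fcrls. Over all genes measured 13.4% were higher and 14.0% lower. Cldn5 and Abcc9 were higher and Tagln lower among 9 vascular genes, Gata2 higher and Tal1 lower among 9 GABAergic genes, and Arc higher and Nr4a3 lower among 5 immediate early genes. Hbb-bs was higher and Alas2 lower of the 2 blood genes measured. Meg3, an imprinted noncoding RNA, had 1177 CPM in wild type and 2997 CPM on the contralateral side, a log2 ratio of -1.40 (-1.48 to -1.33).

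The most extreme ratios belonged to genes of low count. Mctp2 had 66 reads in wild type and 1 on the contralateral side, a ratio of 52.0 with a log2 interval of 3.79 to 11.6, and Aass, an enzyme of lysine breakdown, had 63 and 1. Avpr1a, a vasopressin receptor, had 41 reads in wild type and 0 on the contralateral side, at least 16.6-fold higher against a floor of 3 reads in that library. Such bounds use the one-sided limit for 0 reads and leave out the counting error of the other library. In the other direction, the antisense gene Gm16156 had 0 reads in wild type and 97 on the contralateral side, at least 26.7-fold lower in wild type. Hrh1, a histamine receptor, had 0 and 71 reads, at least 19.5-fold lower in wild type. In En1+/- and on the infused side, Avpr1a had 0 and 29 reads, Mctp2 177 and 21, and Aass 5 and 14. Gm16156 had 3 and 1 reads there, and Hrh1 50 and 22. Gm16156 overlaps Slc12a4 on the opposite strand, which had 13 reads in wild type and 172 on the contralateral side. Without a stated strand, reads in that overlap cannot be assigned to either gene. The genes of this paragraph were named after their values were seen.

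**Figure D5:**
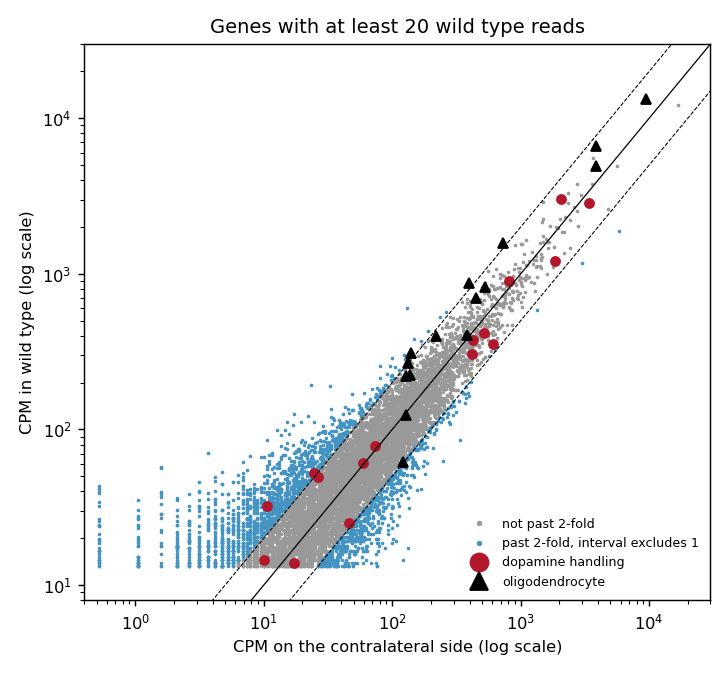
CPM in wild type (log scale) against CPM on the contralateral side (log scale) for genes with at least 20 wild type reads and a contralateral read. Solid line, equal CPM; dashed lines, 2-fold. Most oligodendrocyte genes (black triangles) lie above the line, and dopamine handling genes (red circles) lie on both sides of it.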

How the data were processed

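Total RNA of laser-captured nigral cells was sequenced after Illumina library preparation, per the labels' protocols. For each captured sample the authors deposited raw read counts per Ensembl transcript, so that 1 read may enter the count of several overlapping transcripts. Per the submitters' processing notes, the tools were DESeq 1.8.3, HTSeq and Bowtie and the genome mm10, with no roles given. The strand of the library and the annotation release are not given in the sources used here.

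Each gene was represented by its most-read transcript in the wild type library. Transcripts with no gene identifier (9402, with 2.93% of the counts) and 317 mt- and ribosomal RNA genes were left out, and counts were divided by the remaining 1513313 reads to give CPM. Lengths and coordinates came from GENCODE M21 (GRCm38), which covers 99.0% of the kept reads. These lengths can differ from those the authors counted with. For the comparison with the contralateral library, counts were scaled by the median of ratios, 0.5 was added, and Clopper-Pearson intervals were computed. The captured libraries hold 1513313 to 3257244 kept reads. With 1 sample per group no significance test was made.

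The genes named are Slc6a3, Th and Ddc, the 25 highest by CPM and by CPM per kilobase, and for each of 22 lists the 5 highest per kilobase, the members past 2-fold and those with 0 reads. For each of 17 symbol families they are the 8 highest per kilobase. A few further list members and, in the comparison, leading genes were named after their values were seen. The members and lists were chosen with earlier results of these data known. Listed genes outside the table were not analysed here, and some genes that this rule names are not reported here. Scripts were tested on simulated data and used Python 3.11.15, pandas 2.3.3 and SciPy 1.17.1. Promoter sequences are from RefSeq, and all 4 genes matched. The alternatives were other ways to represent a gene, other totals, other read minimums and other scalings.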

Additional observations from a re-analysis of the deposited data

Results flagged for a closer look

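Transcripts that carry no gene identifier held 473196 reads in the wild type library, above the limit that a count of 0 allows. They are 2.93% of its transcript counts, against 4.78% in En1+/-, 4.67% on the infused side and 3.44% on the contralateral side. None of the 9402 transcripts is in the annotation used here. The highest of them had 4549 reads, a count that 11 named genes exceeded, and 732 were over 100 CPM.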

How the results depend on the processing

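Of the recomputed values, 13 were labelled close to the reported value and 14 moved. Counts of genes were judged by a fixed fold limit, and the summed CPM and the rank by the counting interval of the reported value. The tally therefore does not rank the results by how steady they were. Genes with at least 20 reads numbered 9359, against 15713 at a minimum of 1 read and 3585 at 100. Genes at 100 CPM numbered 2361, against 89 when mt- and rRNA genes entered the total. The dopamine handling sum of 9747 CPM became 5896 when all transcripts of a gene were summed, 1081 with mt- and rRNA genes in the total, 10385 without the 10 most-read genes and 7426 with unnamed transcripts in the total. The oligodendrocyte sum of 30783 CPM became 79868, 3414, 32795 and 23450 CPM under those same settings. Slc6a3 ranked 14 by CPM, 72 when transcripts were summed and 21 per kilobase. The summing of transcripts counts a read once per overlapping transcript, which raises genes with many transcripts. Genes past 2-fold against the contralateral side numbered 2935, and 684 with at least 100 reads required, where fewer genes were measured. With no minimum they numbered 4127 of 17732, or 23.3%. The 2936 calls under TMM scaling and 2943 under scaling by totals were close to the reported 2935. The balance of 1432 higher and 1503 lower calls turned to 1566 higher and 1377 lower under scaling by totals and to 2070 and 2057 with no minimum.

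No paired analysis was possible because each group has 1 sample. Depth limits genes of low count: a count of 0 in wild type allows up to 1.98 CPM, by the one-sided limit of 3 reads.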
